A study of Mus musculus with 12 samples.

Results

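The genes described here are the enzymes that build triglyceride from glycerol phosphate, together with Pnpla3, an enzyme that remodels it on lipid droplets. They are 9 genes picked by name (Gpam, Agpat2, Lpin1, Lpin2, Lpin3, Dgat1, Dgat2, Mogat1 and Pnpla3) among the 50499 genes of a liver RNA sequencing count table. Of the 9, 8 had enough reads to be tested, and Pnpla3, with 44 reads over all 12 libraries, did not. The study paired a diet that brings on metabolic dysfunction-associated steatohepatitis with a vector meant to silence Aatf, a nucleolar and transcriptional regulator, in hepatocytes. All animals were male wild-type C57Bl/6NCrl mice whose diets began at 6 weeks of age. After 12 weeks each received AAV8 particles by tail vein, and livers were taken 12 weeks later. There were 3 libraries in each of 4 groups. Western siAATF mice had Western diet, sugar water and the AAV8-TBG-siAATF vector. Western null mice had that diet and drink with the AAV8-TBG-Null vector. Chow siAATF mice had chow, normal water and the silencing vector, and chow null mice had chow, normal water and the null vector. Every group therefore carried an AAV8 vector, and none was left uninjected. The TBG promoter is active mainly in hepatocytes, so other liver cells were not the intended target. The labels do not say whether the numbered replicates of a group come from different animals, and p-values then cover only the spread between these samples, which may be technical.

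As background, triglyceride is assembled in the liver by the glycerol phosphate pathway. Gpam adds the first fatty acyl chain to glycerol 3-phosphate at the mitochondrial outer membrane, and Agpat2 adds the next to give phosphatidic acid. The lipins Lpin1, Lpin2 and Lpin3 are phosphatidic acid phosphatases that make diacylglycerol, and Lpin1 also acts in the nucleus as a transcriptional coactivator. Dgat1 and Dgat2 add the last acyl chain by unrelated proteins, and Mogat1 offers a side entry by acylating monoacylglycerol. Pnpla3 is a lipid droplet protein whose human coding variant is a well-known risk factor for fatty liver disease.

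Lpin1 and Lpin2 were the members whose Western null libraries lay above all other libraries, so a sequence around an annotated start of each is shown here. A sequence of Lpin3, whose groups overlapped, is beside them. Windows of 300 bases, from 250 before to 50 after a start, came from RefSeq (build GRCm38.p6), which held 11 windows for 7 of the 9 genes. Each window is 1 annotated start, not necessarily the one used in these livers. The motifs searched on both strands were the E-box CACGTG, the D-box TTATGNAA, a sterol regulatory element TCACNCCAC and the PPAR element DR1. Capitals mark a match. Lpin2 and Lpin3 also had windows at other annotated starts, none of which held a match. The window printed for each of them is that with a match. In order, the windows are chr12:16610917-16611216 (minus strand), chr17:71183282-71183581 (plus strand) and chr2:160880420-160880719 (plus strand).
Lpin1: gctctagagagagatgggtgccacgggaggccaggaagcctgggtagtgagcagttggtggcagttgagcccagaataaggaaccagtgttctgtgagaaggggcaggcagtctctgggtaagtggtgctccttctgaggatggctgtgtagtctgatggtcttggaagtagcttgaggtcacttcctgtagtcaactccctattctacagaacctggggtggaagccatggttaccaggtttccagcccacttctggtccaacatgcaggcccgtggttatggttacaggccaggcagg
Lpin2: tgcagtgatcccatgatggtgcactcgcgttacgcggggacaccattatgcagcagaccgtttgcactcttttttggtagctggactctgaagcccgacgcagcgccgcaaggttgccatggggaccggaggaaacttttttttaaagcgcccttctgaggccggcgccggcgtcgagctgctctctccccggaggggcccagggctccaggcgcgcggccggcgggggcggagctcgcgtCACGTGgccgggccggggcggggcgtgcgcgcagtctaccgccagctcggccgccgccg
Lpin3: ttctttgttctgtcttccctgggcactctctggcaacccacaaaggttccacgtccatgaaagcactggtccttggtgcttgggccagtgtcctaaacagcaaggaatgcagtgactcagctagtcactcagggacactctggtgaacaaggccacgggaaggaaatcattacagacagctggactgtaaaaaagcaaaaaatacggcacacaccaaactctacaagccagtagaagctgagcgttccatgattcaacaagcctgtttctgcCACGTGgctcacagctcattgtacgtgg
The printed Lpin2 window held an E-box that starts at base 242 of the window, and the printed Lpin3 window held one that starts at base 273. The Lpin1 window held none of the motifs. Among all 32851 promoter windows of this length, 7.15% held the E-box, 3.38% the D-box, 1.24% the sterol regulatory element and 0.0396% the DR1 element. No other window of a member held any of the motifs. A match of letters describes the window only.

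Depth limits some of these genes. Libraries held 1646853 to 13469819 reads, and the 18S ribosomal RNA gene took between 0.871% and 50.8% of them. Levels are given as CPM, reads scaled to a common library size with TMM factors, and 3 reads corresponded to between 0.185 and 1.69 CPM. Aatf itself, the gene targeted, averaged 27.5 ± 0.60 CPM in Western siAATF livers and 26.3 ± 4.60 CPM in Western null livers (SD, n = 3 each). Its log2 fold change was 0.06 ± 0.25 on Western diet and 0.11 ± 0.24 on chow (SE), with adjusted p of 0.953 and 1 by edgeR's quasi-likelihood test, so its RNA was not shown to be lower under siAATF. The summed level of 8 hepatocyte markers lay at 41370 to 48940 CPM in Western siAATF livers and 44670 to 50080 CPM in Western null livers. The same sum was 67190 to 70090 CPM in chow siAATF livers and 56110 to 89980 CPM in chow null livers. Alb made up most of this sum. It averaged 27440 CPM in Western siAATF, 31490 CPM in Western null, 45910 CPM in chow siAATF and 49520 CPM in chow null livers. In bulk tissue, fewer cells of a type and less RNA per cell cannot be told apart.

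None of the 8 tested genes passed edgeR's test in any comparison. All 3 Western null libraries held more Lpin1 and more Lpin2 than any of the other 9 libraries. That pattern was found in these same data, and the share of all genes that show it was not counted. In Western null against chow null, which asks what the diet did, 0 of the 8 genes were called by the quasi-likelihood test of edgeR (Benjamini-Hochberg adjusted over 11934 genes), against 13.2% of all genes tested. At an unadjusted p under 0.05 there were 3 of the 8 (Lpin1, Lpin2 and Mogat1), against 28.5% of all genes. DESeq2 and limma-voom each called 1 of the 8, Lpin1 in both. Western null libraries lay wholly above chow null libraries for 5 of the 8 genes (Gpam, Lpin1, Lpin2, Dgat2 and Mogat1), as they did for 17.7% of all genes tested. Mogat1 passed the low-count filter through its Western libraries, so its place in that count and in the count by unadjusted p was partly fixed in advance. The median log2 fold change of the 8 genes was 0.39, beside -0.03 for all genes tested.

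**Figure D1:**
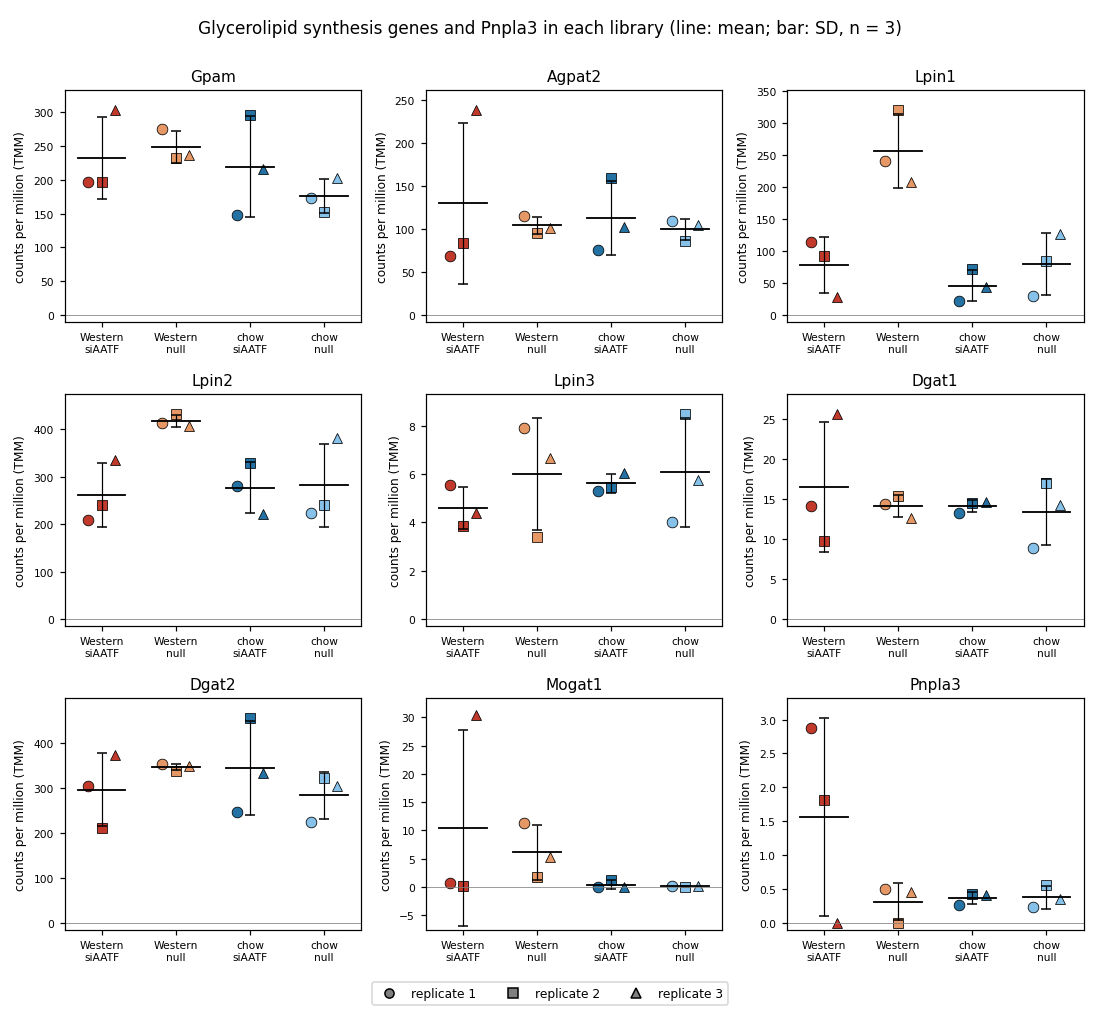
Level of each of the 9 genes in CPM (vertical axis) in every library, with the groups side by side from Western siAATF to chow null. Points are libraries shaped by replicate number, lines are group means and bars are SD (n = 3). The Western null points are the highest for Lpin1 and Lpin2, and a single Western siAATF library, replicate 3, is the highest for Gpam, Agpat2, Dgat1 and Mogat1.

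Western siAATF against Western null, the comparison that asks what the silencing vector did on the diet, also called 0 of the 8 genes, against 0.871% of all genes tested. At an unadjusted p under 0.05 there were 2 (Lpin1 and Lpin2), against 10.7% of all genes, and DESeq2 called 1 (Lpin1) and limma-voom 0. For those same 2 genes the Western siAATF libraries lay wholly below the Western null libraries, as they did for 7.87% of all genes. The median log2 fold change of the 8 genes was -0.16, beside 0.06 for all genes. This comparison shares its Western null libraries with Western null against chow null. On chow, siAATF against null called 0 of 11934 genes (background 0%) by edgeR, and DESeq2 and limma-voom also called 0. In edgeR 2.39% of all genes and 0 of the 8 had an unadjusted p under 0.05 in that comparison. Without the low-count filter edgeR called 33 genes there, none of the 9 among them.

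**Figure D2:**
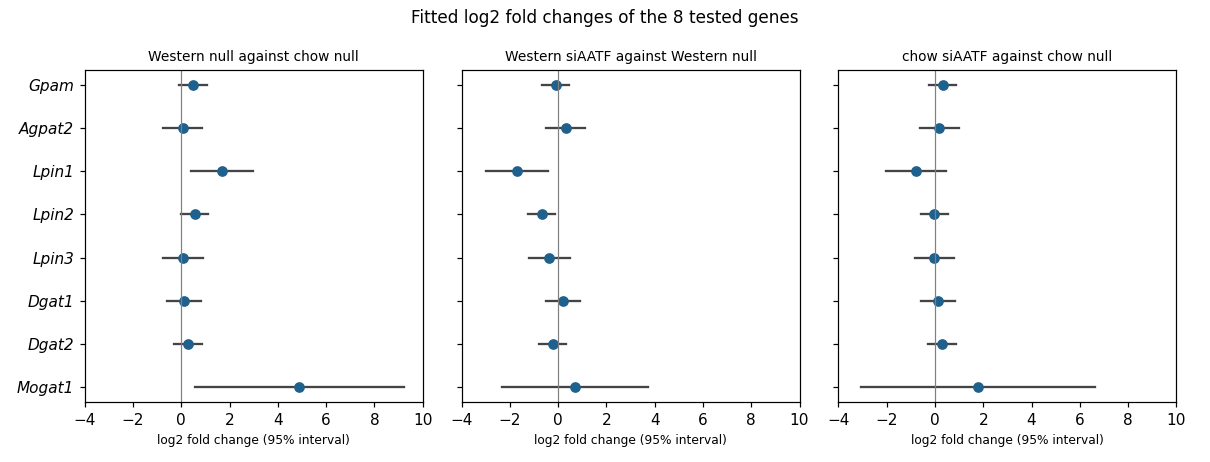
Fitted log2 fold change (horizontal axis) of the 8 tested genes (rows) in the 3 comparisons named by the study, with 95% intervals as bars. The intervals of Lpin1 lie above 0 for Western null against chow null (0.40 to 2.95) and below 0 for Western siAATF against Western null (-2.98 to -0.42), and none of the 8 genes passed after adjustment over all genes in edgeR. DESeq2 called Lpin1 in both of these comparisons and limma-voom in the first.

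Gpam (chr19:55056067-55115751, minus strand, GRCm39), which starts the pathway, had 197, 197 and 303 CPM in Western siAATF livers. It had 276, 233 and 237 CPM in Western null livers, 148, 296 and 216 CPM in chow siAATF livers, and 174, 153 and 203 CPM in chow null livers. The Western null libraries lay above all chow null libraries, whereas both siAATF groups spanned a wider range. The log2 fold change of Western null over chow null was 0.49 ± 0.27 (SE; adjusted p = 0.243, edgeR quasi-likelihood test). For Western siAATF over Western null it was -0.10 ± 0.27, with a 95% interval of -0.66 to 0.47. Of the span of Gpam, 32.7% is shared with other annotated genes, where reads may not have been assigned.

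Agpat2 (chr2:26483069-26494429, minus strand), the next acyltransferase, had 69.2, 83.5 and 238 CPM in Western siAATF livers and 116, 95.7 and 102 CPM in Western null livers. In chow siAATF livers it had 75.1, 160 and 103 CPM, and in chow null livers 109, 85.8 and 104 CPM. The groups overlapped, and the value of Western siAATF replicate 3 was 3.12 times the mean of the other 2 libraries of its group. The log2 fold change was 0.06 ± 0.38 for Western null over chow null and 0.31 ± 0.38 for Western siAATF over Western null. Without Western siAATF replicate 3 the second of these was -0.46, so its direction rests on that library.

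Lpin1 (chr12:16585670-16697020, minus strand) varied most of the genes with reads in every library, 14.2-fold between the lowest and the highest. It had 113, 92.8 and 28.6 CPM in Western siAATF livers, and 240, 319 and 208 CPM in Western null livers. It had 22.5, 71.2 and 43.7 CPM in chow siAATF livers and 29.9, 84.1 and 126 CPM in chow null livers. The Western null libraries were above every other library, and the other 3 groups overlapped each other. Western null averaged 256 ± 57.3 CPM and chow null 80.0 ± 48.1 CPM (SD, n = 3 each), a fitted 3.20-fold difference (95% interval 1.32 to 7.74). Its log2 fold change was 1.68 ± 0.58 (SE), which did not pass the test (adjusted p = 0.0813, edgeR). The same difference passed in DESeq2 (adjusted p = 0.0108) and limma-voom (adjusted p = 0.0281), and in edgeR when Western siAATF replicate 3 was left out of the fit (adjusted p = 0.0323). This difference passed under 5 of 20 alternatives. Its lowest adjusted p, 1.08e-06, came from edgeR without the low-count filter, a fit that also called 33 genes in chow siAATF against chow null. It did not pass under the other alternatives, with an adjusted p of 0.193 in edgeR when Western null replicate 2 was left out. Leaving out the libraries with over 25% 18S reads left chow null with replicate 3 alone, assumed to vary like the other groups, and gave a log2 fold change of 1.05. Leaving out chow null replicate 1 gave 1.27.

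Set against Western null, the Western siAATF livers averaged 78.2 ± 44.2 CPM of Lpin1 (SD, n = 3), a log2 fold change of -1.70 ± 0.58 (SE) that did not pass (adjusted p = 0.284, edgeR). DESeq2 called it (adjusted p = 0.0422) and limma-voom did not (adjusted p = 0.159), and over all alternatives the adjusted p ranged between 8.39e-07 and 0.574. The lower end came from edgeR without the low-count filter. The sign of this Lpin1 difference was negative under each of the 20 alternatives, with values between -2.05 and -1.32. On chow the log2 fold change of siAATF over null was -0.79 ± 0.58, with overlapping libraries. The test of whether the vector's effect on Lpin1 differed between diets gave -0.91 ± 0.81 (adjusted p = 0.763), with 0.193% of all genes called for that interaction and 0 of the 8. No member had an unadjusted p under 0.05 in it, against 9.16% of all genes, and DESeq2 and limma-voom called 0 of the 8 as well.

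Lpin2 (chr17:71490527-71556813, plus strand), the other abundant lipin, had 209, 239 and 336 CPM in Western siAATF livers. It had 414, 431 and 407 CPM in Western null livers, 280, 329 and 222 CPM in chow siAATF livers, and 223, 241 and 382 CPM in chow null livers. The Western null libraries were close to each other and above all others, although chow null replicate 3 came near them. The log2 fold change of Western null over chow null was 0.57 ± 0.26 (adjusted p = 0.171, edgeR), and it was 0.15 without the libraries with over 25% 18S reads. For Western siAATF over Western null it was -0.68 ± 0.27 (adjusted p = 0.339, edgeR), and without Western siAATF replicate 3 it was -0.91 (adjusted p = 0.0652). On chow, siAATF over null was -0.03 ± 0.26, and the interaction of diet and vector was -0.65 ± 0.37 (adjusted p = 0.623).

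Lpin3 (chr2:160722590-160747920, plus strand) was scarce in every liver. It had 5.53, 3.86 and 4.40 CPM in Western siAATF livers, 7.90, 3.41 and 6.65 CPM in Western null livers, 5.29, 5.48 and 6.06 CPM in chow siAATF livers, and 3.999, 8.47 and 5.75 CPM in chow null livers. All 4 groups overlapped. The log2 fold change was 0.06 ± 0.39 for Western null over chow null and -0.37 ± 0.40 for Western siAATF over Western null, and the 95% interval of the second ran from -1.22 to 0.48.

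Scaled by merged exon length, so that genes can be compared, Lpin2 was the main lipin in all 12 libraries and Lpin3 the least. Lpin1 made up 33.6%, 26.9% and 7.51% of the summed lipin level in Western siAATF livers and 35.4%, 41.6% and 32.6% in Western null livers. It made up 7.06%, 17.0% and 15.5% in chow siAATF livers and 11.3%, 24.3% and 23.9% in chow null livers. The Western null shares were all above the chow null shares. The mean share was 36.6% ± 4.60 in Western null and 19.8% ± 7.39 in chow null livers (two-sided exact permutation p = 0.1, the smallest that 3 against 3 allows). Western siAATF, at 22.7% ± 13.6, overlapped Western null (exact permutation p = 0.2, two-sided). In Western siAATF the share of replicate 1 lay within the Western null range and those of replicates 2 and 3 below it. The summed lipin level, in contrast, was lower in all 3. That sum was 52.5, 53.8 and 59.4 CPM per exon kb in Western siAATF livers and 106, 120 and 99.2 CPM per exon kb in Western null livers. It was 49.7, 65.2 and 43.9 in chow siAATF livers and 41.3, 54.0 and 82.2 in chow null livers, in the same unit. The 3 Western null sums were thus the highest of the 12. Counting included introns, so the length-scaled levels carry intron reads in their numerator.

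**Figure D3:**
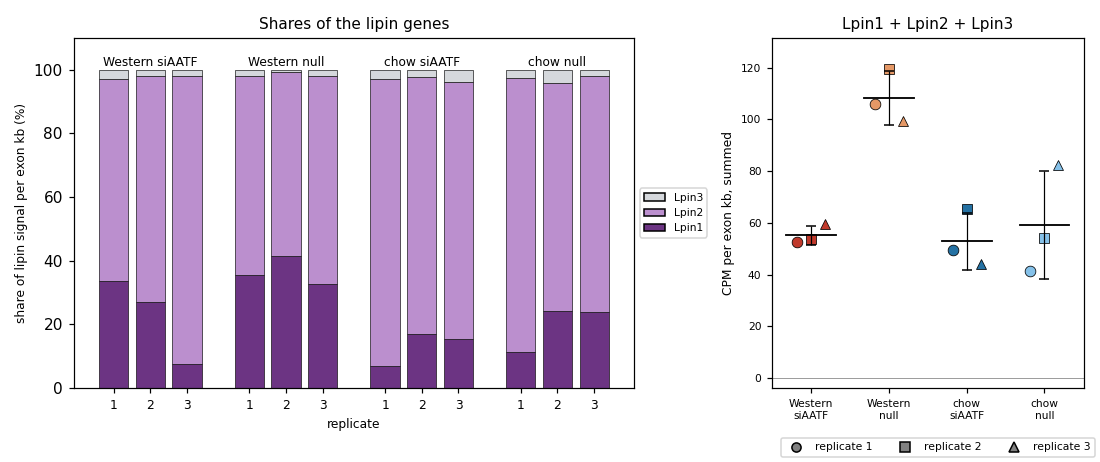
Left, share of Lpin1, Lpin2 and Lpin3 in the summed lipin level per exon kb (vertical axis, %) in each library. Right, that sum in CPM per exon kb, with points for libraries, lines for means and bars for SD (n = 3). Lpin2 holds the largest share in every library, and the Western null sums (99.2 to 120) are above all others.

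Dgat2 (chr7:98802870-98831920, minus strand), one of the enzymes that complete triglyceride, had 305, 210 and 373 CPM in Western siAATF livers and 353, 338 and 349 CPM in Western null livers. It had 247, 454 and 334 CPM in chow siAATF livers and 225, 321 and 304 CPM in chow null livers. The Western null libraries lay just above all chow null libraries, with a log2 fold change of 0.29 ± 0.27 (adjusted p = 0.512, edgeR). Western siAATF over Western null was -0.23 ± 0.27. Dgat1 (chr15:76386212-76396225, minus strand), its unrelated counterpart, had 14.2, 9.76 and 25.5 CPM in Western siAATF livers and 14.3, 15.3 and 12.6 CPM in Western null livers. In chow siAATF livers it had 13.2, 14.5 and 14.6 CPM, and in chow null livers 8.91, 16.9 and 14.2 CPM. These groups overlapped, with log2 fold changes of 0.11 ± 0.34 for Western null over chow null and 0.20 ± 0.34 for Western siAATF over Western null. The second was -0.24 without Western siAATF replicate 3. Per exon kb, Dgat2 exceeded Dgat1 between 11.8-fold and 25.2-fold in the 12 libraries, and per kb of the whole gene span between 5.03-fold and 10.8-fold. The lower end of both ranges was Western siAATF replicate 3 and the upper end chow siAATF replicate 2.

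Mogat1 (chr1:78487697-78597882, plus strand) was nearly silent on chow and uneven on Western diet. It had 3, 1 and 69 reads in Western siAATF livers, 23, 5 and 59 reads in Western null livers, 0, 21 and 0 reads in chow siAATF livers, and 1, 0 and 3 reads in chow null livers. As levels these were 0.663, 0.227 and 30.4 CPM in Western siAATF livers and 11.4, 1.70 and 5.30 CPM in Western null livers, and at most 1.29 CPM in chow siAATF and 0.261 CPM in chow null livers. Western null held reads in every library and lay above chow null, whereas Western siAATF depended on replicate 3. The summed reads, scaled by library size, were 29.7 times higher in Western null than in chow null livers (95% counting interval 11.2 to 112, which covers counting error only). The fitted log2 fold change was 4.90 ± 1.95 (adjusted p = 0.129, edgeR). It passed under 3 of 20 alternatives, which were no low-count filter, only the groups compared, and Western siAATF replicate 3 left out (adjusted p = 0.00283), and the adjusted p ranged between 2.69e-08 and 0.416 over all of them. Since Mogat1 was kept for testing through its Western libraries, these p-values are given as a description. Western siAATF over Western null was 0.71 ± 1.36, and it was -3.67 (adjusted p = 0.0756) without that same library, so its direction rests on 1 library. Western siAATF over chow siAATF was 3.81 ± 1.56 (adjusted p = 0.282) and -0.58 without it. Of the span of Mogat1, 40.4% is shared with other annotated genes.

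Defining adipocyte markers were at or near 0 in these livers. In Western siAATF replicate 3, Adipoq, Lep, Retn, Plin1 and Adig all had 0 reads, whereas replicate 1 of that group was the single library with reads of all 5, between 1 and 4 each. In Western null livers 2 reads of Adig in 1 library were all that was found of these 5 genes. Cidea, a lipid droplet protein from the same list that fatty livers are also known to express, had 0.885, 3.18 and 105 CPM in Western siAATF livers and 40.5, 20.1 and 18.1 CPM in Western null livers. It was highest in the same library of each Western group as Mogat1.

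Western siAATF replicate 3 differed from its group over the pathway. It was the highest of the 12 libraries for 4 of the 8 tested genes (Gpam, Agpat2, Dgat1 and Mogat1), as it was for 12.65% of all genes tested. Against the mean of replicates 1 and 2, it held 1.54 times as much Gpam, 2.14 times as much Dgat1 and 0.278 times as much Lpin1. This library had 1989409 reads, of which 0.871% were 18S, while replicates 1 and 2 had 19.8% and 50.8%. The part of depth or RNA composition in its values was not tested.

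**Figure D4:**
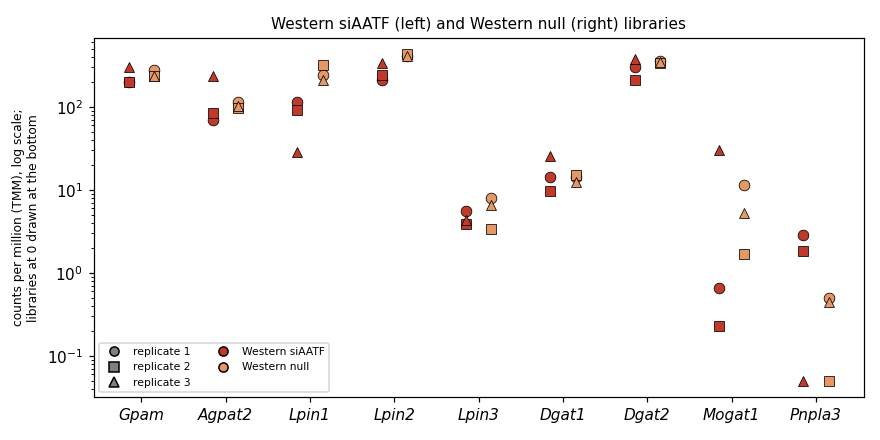
Levels of the 9 genes in CPM (vertical axis, log scale; libraries at 0 are drawn at the bottom) in the 3 Western siAATF and 3 Western null libraries, with point shapes for replicate numbers. Western siAATF replicate 3 (triangles, left of each pair) lies above the rest for Gpam, Agpat2, Dgat1, Dgat2 and Mogat1 and below them for Lpin1.

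Pnpla3 (chr15:84051977-84073722, plus strand) had 13, 8 and 0 reads in Western siAATF livers, 1, 0 and 5 reads in Western null livers, 1, 7 and 2 reads in chow siAATF livers, and 2, 1 and 4 reads in chow null livers. All 21 Western siAATF reads came from replicates 1 and 2, and replicate 3 held none, where 3 reads would be 1.32 CPM. Scaled by library size, the summed reads (21 against 6) were 5.03 times higher in Western siAATF than in Western null livers, with a 95% counting interval of 1.96 to 15.2. Western null over chow null was 1.17 (0.325 to 4.07) on 6 against 7 reads. The filter on low counts removed Pnpla3. Without it, edgeR gave a log2 fold change of 2.20 for Western siAATF over Western null (adjusted p = 0.472), and DESeq2 gave 2.28 (adjusted p = 0.535). At this depth no difference passed for this gene.

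The other genes of the pathway were taken from lists written from textbook knowledge. In Western null against chow null, 1 of 14 other acyltransferases and phosphatases rose and 1 fell, where 6.44% of all genes rose and 6.77% fell, and the list's median log2 fold change was 0.26. The one that rose was Plpp2, a membrane lipid phosphate phosphatase (log2 fold change 1.36 ± 0.37, adjusted p = 0.0219, edgeR), and the one that fell was its relative Plpp3 (-0.90 ± 0.27, adjusted p = 0.0379). Gpat3, a microsomal counterpart of Gpam, was at 2.13 ± 0.71 (adjusted p = 0.0732, edgeR) with groups that did not overlap. Of 12 genes for glycerol phosphate supply and fatty acid activation, 0 rose and 1 fell, Acsl3, an acyl-CoA synthetase (-1.28 ± 0.39, adjusted p = 0.0384), and the median was -0.17. None of 19 genes of the phospholipid branch passed in edgeR, DESeq2 or limma-voom, 1 had an unadjusted p under 0.05, against 28.5% of all genes, and the median log2 fold change was 0.04 beside -0.03 for all genes. Of 16 hydrolases and cofactors, 1 fell, Ces3b, a carboxylesterase of the endoplasmic reticulum (-2.18 ± 0.27, adjusted p = 0.000131). Ces3b passed under each of 20 alternatives, while the call was lost under 4 of 20 for Plpp2, 7 for Plpp3 and 9 for Acsl3, with no change of sign. DESeq2 called 3 of the other acyltransferases and phosphatases, 1 of the supply genes and 2 of the hydrolases, and limma-voom called 3, 2 and 1.

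Several lipogenic genes passed in edgeR, where none of the triglyceride enzymes did, a difference that was not itself tested. Of 16 targets of the lipogenic factors SREBP-1c and ChREBP, 5 rose and 0 fell in Western null against chow null livers, where 6.44% of all genes rose and 6.77% fell, and their median log2 fold change was 0.49. DESeq2 and limma-voom also called 5 of the 16, and both called Lpin1 as well. Among them were Thrsp, a lipogenic nuclear protein (log2 fold change 4.17 ± 0.55), Scd1, the stearoyl-CoA desaturase (1.91 ± 0.38), Pklr, the liver pyruvate kinase (1.14 ± 0.36), and Tkfc, a fructose pathway kinase (1.03 ± 0.26). Of 20 alternatives, 1 each ended the call of Thrsp and Scd1, 5 that of Tkfc and 7 that of Pklr. Of 16 regulators none passed in edgeR, DESeq2 or limma-voom, 5 had an unadjusted p under 0.05, against 28.5% of all genes, and Srebf1 was at 0.84 ± 0.35 (adjusted p = 0.126) and Pparg at 0.78 ± 0.34 (adjusted p = 0.136). For siAATF against null on Western diet only Ces3b passed among all of these lists, in edgeR, DESeq2 and limma-voom alike, and it rose (1.76 ± 0.27, adjusted p = 0.00379, edgeR). Of the 16 lipogenic targets 4 had an unadjusted p under 0.05 there, against 10.7% of all genes, and their median log2 fold change was -0.15, beside 0.06 for all genes. Pparg was at -0.95 ± 0.34 (adjusted p = 0.284) and Srebf1 at 0.75 ± 0.35 (adjusted p = 0.458) there. No listed gene passed in chow siAATF against chow null by any of the 3 tools, where 1 of the 16 lipogenic targets, 1 of the 14 acyltransferases and phosphatases and 1 of the 12 supply genes had an unadjusted p under 0.05, against 2.39% of all genes. Western siAATF against chow siAATF called 1.48% of all genes and 0 of the 8 triglyceride genes, with 0 also in DESeq2 and limma-voom. Mogat1 was the single one with an unadjusted p under 0.05, against 15.2% of all genes. It was kept for testing through its Western libraries, and its log2 fold change was -0.58 without Western siAATF replicate 3. In the same comparison Thrsp rose (2.29 ± 0.50) and Fads1, a desaturase, fell (-0.99 ± 0.23), and these calls were lost under 12 and 10 of 20 alternatives.

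Markers of other cells differed between the same groups. In Western null against chow null livers, 5 of 8 macrophage markers, 5 of 5 lipid-associated macrophage markers, 4 of 6 stellate, 3 of 5 endothelial and 3 of 5 cholangiocyte markers rose, and 2 of 8 hepatocyte markers fell (Tat and Hnf4a), where 6.44% of all genes rose and 6.77% fell. For Western siAATF against Western null, 4 of 5 lipid-associated macrophage markers and 1 of 5 cholangiocyte markers (Spp1, which is in both lists) fell, and none of the others passed, where 0.871% of all genes were called in either direction. Gpnmb, Mmp12, Trem2, Epcam and Tspan8 had few reads outside Western null livers and passed the low-count filter through that group. The place of these genes in the counts of both comparisons was thus partly fixed in advance. The lipid-associated macrophage markers summed to 34.8 to 55.2 CPM in Western siAATF livers, 204 to 319 CPM in Western null livers, 23.4 to 39.2 CPM in chow siAATF livers and 9.03 to 26.7 CPM in chow null livers. Western null was thus the highest group for these markers, as it was for Lpin1 and Lpin2. Their part in the lipin levels was not tested.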

How the data were processed

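The deposited table holds raw counts of reads per gene from SMART-Seq libraries, per the labels' protocols and the values. Per the submitters' processing notes, the authors used STAR 2.7.11, featureCounts 2.0.1, R 4.3.2 and DESeq2 1.42.0 with the build GRCm39. Whether counting used strand is not given in the sources used here. Gene lengths in the table are those of the full gene span, introns included, and reads shared by overlapping genes may be missing.

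From these counts, edgeR 4.0.16 (R 4.3.3) kept genes by filterByExpr by group, scaled libraries by TMM and tested 11934 genes in 1 quasi-likelihood fit of all 12 libraries with 1 mean per group (8 residual degrees of freedom). Benjamini-Hochberg adjustment ran over all genes tested, at a threshold of 0.05. Intervals are 95% intervals; those on summed reads are exact and cover counting error only. Totals per library ran between 1646853 and 13469819 counts. The tests were also run on simulated counts with known changes, and the outcome is not used as support for any result here. Alternatives were DESeq2 1.42.0, limma-voom (limma 3.58.1), DESeq2 size factors, no low-count filter, the replicate number as a block, only the groups compared, each library left out, libraries with over 25% 18S left out, and 18S removed. DESeq2 was run on all genes with reads, Pnpla3 included, and not only on the 11934. Exon lengths for levels per kb came from GENCODE M21.

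All 9 genes are named; of each other list, up to 4 genes past the threshold per comparison by adjusted p are named. A gene that this rule names is not reported here. Pklr, Pck1, Dbp, Gpat3, Srebf1, Pparg, Cidea and Alb were chosen after their values were seen. The members and lists were chosen with earlier results of these data known. Of the pathway genes, 9 were not tested; 5 of these have 0 counts throughout and sit within a larger gene. Replicates differed beyond sampling noise in every pair (lowest chi-square over its degrees of freedom 10.3), so none was merged.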

Additional observations from a re-analysis of the deposited data

How the results depend on the processing

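Of 790 values of the 8 tested genes under alternatives, 727 kept direction and side of the threshold, 11 passed it and 52 changed sign. Genes of the 8 called in Western null against chow null numbered 1 with DESeq2 and with limma-voom, 2 without the low-count filter and with only the groups compared, and 0 to 2 with a library left out. For Western siAATF against Western null, DESeq2 and the fit without the filter called 1 each, and in Western siAATF against chow siAATF the fit without the filter called 1. Depth limits Mogat1, Pnpla3 and Lpin3, and 18S shares over 25% limit how far Western siAATF replicate 2, chow siAATF replicate 1 and chow null replicates 1 and 2 can be read. The cause of these changes was not tested.

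Over all genes, DESeq2 called 261 in Western siAATF against Western null (104 in edgeR), 477 in Western siAATF against chow siAATF (177) and 125 for the interaction (23). Without the filter these were 572, 836 and 331, and 33 in chow siAATF against chow null. With only the groups compared they were 53 and 17. limma-voom called 9 for the interaction. Without libraries over 25% 18S there were 1031 in Western null against chow null (1577), 103 in Western siAATF against chow siAATF and 3 for the interaction. With 1 library left out the counts ran from 658 to 2250 in Western null against chow null, 26 to 413 in Western siAATF against Western null, 34 to 737 in Western siAATF against chow siAATF and 2 to 295 for the interaction. The highest of each came without Western siAATF replicate 3, and the lowest without chow null replicate 3, Western null replicate 1, chow siAATF replicate 2 and chow null replicate 3.

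With the replicate number as a block, edgeR called 64 genes in Western siAATF against Western null, 71 in Western siAATF against chow siAATF and 14 for the interaction, and 0 of the 8 genes in every comparison. Correlations of same-numbered libraries ran from -0.15 to 0.26 and never all exceeded 0.1 in a comparison, so the numbers were not taken as a pairing. Under the block Mogat1 in Western siAATF against Western null was -0.17 and Lpin2 in chow siAATF against chow null 0.0122.

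Signs of log2 fold changes changed as follows; those of Mogat1 rest on few reads and were not of values near 0. limma-voom gave Mogat1 -1.85 in Western siAATF against Western null, Lpin3 0.10 in chow siAATF against chow null, and Agpat2 -0.0159 and Dgat1 -0.17 for the interaction. Without libraries over 25% 18S, Dgat1 was -2.83e-05 in Western null against chow null, Gpam 0.0206 in Western siAATF against Western null and -0.0265 in Western siAATF against chow siAATF, and Lpin3 0.0274 in chow siAATF against chow null. With only the groups compared, Lpin2 was 0.000579 and Lpin3 0.00844 in chow siAATF against chow null. With 1 library left out, the ranges that crossed 0 were these. In Western null against chow null: Agpat2 -0.0479 to 0.12, Lpin3 -0.19 to 0.33 and Dgat1 -0.14 to 0.26. In Western siAATF against Western null: Gpam -0.35 to 0.00948, Agpat2 -0.46 to 0.62, Dgat1 -0.24 to 0.48 and Mogat1 -3.67 to 1.33. In chow siAATF against chow null: Agpat2 -0.15 to 0.40, Lpin2 -0.17 to 0.27, Lpin3 -0.28 to 0.20, Dgat1 -0.11 to 0.29 and Mogat1 -3.06 to 2.59. In Western siAATF against chow siAATF: Gpam -0.20 to 0.33, Agpat2 -0.61 to 0.52, Lpin2 -0.35 to 0.0462, Dgat1 -0.28 to 0.45, Dgat2 -0.46 to 0.00708 and Mogat1 -0.58 to 8.67. For the interaction: Agpat2 -0.66 to 0.46, Dgat1 -0.40 to 0.34 and Mogat1 -5.50 to 3.78. Leaving out Western siAATF replicate 3 gave 11 sign changes, and any other library between 1 and 6.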

Other observations

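Lpin1 is known in mouse liver as a gene that follows fasting, glucocorticoids and the daily clock, so the genes of those responses are given here from lists written with earlier results known. In Western null against chow null livers, 6 of 14 core clock genes rose and 3 fell by edgeR's quasi-likelihood test, where 13.2% of all genes were called. The period genes Per2 (log2 fold change 3.00 ± 0.52, SE) and Per3 (2.58 ± 0.40) and the output factor Dbp (4.53 ± 0.78) rose, and Arntl, the gene of BMAL1, and Npas2, a partner of it, fell (-3.11 ± 0.44 and -3.13 ± 0.51). In the same comparison 2 of 12 fasting and glucocorticoid response genes rose and 3 fell. Per1 (1.88 ± 0.40) and Fkbp5, a glucocorticoid-induced chaperone (1.53 ± 0.41), rose, while G6pc (-1.78 ± 0.37) and Pck1 (-0.96 ± 0.31), enzymes of glucose production, and Tat (-1.16 ± 0.35) fell. Per1 is in the core clock list as well, so the counts of the 2 lists are not independent. Tat is also one of the hepatocyte markers. In Western siAATF against chow siAATF livers, Per2 (2.01 ± 0.48) and Per3 (1.93 ± 0.37) rose, and Arntl (-1.86 ± 0.41) and G6pc (-1.80 ± 0.37) fell. Across 20 alternatives each of these genes kept its sign; in Western null against chow null Pck1 lost its call under 12, Tat under 8 and Fkbp5 under 5, and in Western siAATF against chow siAATF Per2 lost it under 12, Arntl under 8, G6pc under 6 and Per3 under 4. None of these genes passed in Western siAATF against Western null livers in edgeR, DESeq2 or limma-voom, where 1 gene of each of the 2 lists had an unadjusted p under 0.05, against 10.7% of all genes. In chow siAATF against chow null livers no gene of the 2 lists passed in any of these tools. There 4 of 14 core clock genes had an unadjusted p under 0.05 in edgeR, against 2.39% of all genes. The fasting and glucocorticoid response list had 0 of 12. The time of day at which livers were taken is not given in the sources used here, and its part in the Lpin1 levels was not tested.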
